A study of Mus musculus with 11 samples.

Results

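The genes described here are the 194 expressed members of the mouse Zfp series, genes named for a zinc finger protein and a number. They were chosen as the rows of the count table whose gene ID maps to a symbol made of Zfp and digits, leaving out Zfp36, with a mean of at least 5 CPM over the 11 libraries, CPM being counts scaled to the library total. Such a symbol belonged to 373 of the 48709 genes measured, and 194 of these met the level. The level, which used the counts of every group, chose the members, so how highly they are expressed is a description and not a result. RNA sequencing was done on muscle stem cells (MuSCs, also called satellite cells, the resident stem cells of skeletal muscle) from pectoral, forelimb and hindlimb muscles of C57BL/6 mice that carry Tg:Pax7-nGFP. All 3 groups carried this transgene, a nuclear green fluorescent protein driven by Pax7 sequences, and the labels state no ages. In T0 (3 libraries) whole muscles were fixed with 0.5% paraformaldehyde for 1 h at 4°C. In T3 (4 libraries) cells went through the standard isolation by FACS and were then fixed with 0.5% paraformaldehyde for 30 min on ice. T5 (4 libraries) had a further 2 h at 37°C. The labels' protocol places these hours in DMEM before the isolation and the series description after it, so their order is not settled. Counts of T5 libraries with a common letter in their titles were summed, so that T0 has 3, T3 has 4 and T5 has 2 replicates. The labels do not say whether replicates are separate animals, so p-values measure the spread between libraries, which may be technical. T3 against T0 addresses what isolation changed in the RNA of these cells. The site and length of the fixation differ between these groups as well and cannot be told apart from it.

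Most Zfp genes encode C2H2 zinc finger proteins, in which a pair of cysteines and a pair of histidines hold a zinc ion and each finger can read a few bases of DNA. Many carry a KRAB domain at their N-terminal end, whose A box binds the corepressor TRIM28 (KAP1), which brings the histone methyltransferase SETDB1 and heterochromatin proteins to the bound site. These KRAB zinc finger genes are known for silencing retroelements and imprinted loci, and many lie side by side in clusters. Other Zfp genes without a KRAB domain bind RNA, work on ribosomes or act as developmental regulators, so that the shared name does not mark 1 function.

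By sequence, 89 members had a KRAB A box pattern, 102 had none, and 3 had no coding transcript in the annotation (GENCODE vM21, build GRCm38). The pattern was a match to at least 12 of the 39 positions of a consensus derived from 143 windows of Zfp genes. Members with the pattern matched 12 to 32 positions, with a median of 26, and members without it matched 10 at most. The members had 0 to 37 fingers by pattern, with a median of 11. The coding sequence of the A box is shown for 5 KRAB members that the results turn on, of which Zfp568, Zfp386 and Zfp809 were lower and Zfp655 and Zfp948 higher after isolation. Capitals mark the codons whose amino acid matches the consensus, and every sequence is read 5′ to 3′ from the plus strand of GRCm38. The boxes lie at chr7:29997753-29997869 (Zfp568), chr12:116054725-116054841 (Zfp386), chr9:22235023-22235139 (Zfp809), chr5:145235740-145235856 (Zfp655) and chr17:21584783-21584899 (Zfp948).
Zfp568: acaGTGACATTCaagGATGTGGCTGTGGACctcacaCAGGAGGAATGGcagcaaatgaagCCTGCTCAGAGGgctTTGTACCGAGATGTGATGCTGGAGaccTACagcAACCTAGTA
Zfp386: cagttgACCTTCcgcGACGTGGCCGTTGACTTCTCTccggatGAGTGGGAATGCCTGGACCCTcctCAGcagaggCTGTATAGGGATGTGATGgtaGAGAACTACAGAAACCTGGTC
Zfp809: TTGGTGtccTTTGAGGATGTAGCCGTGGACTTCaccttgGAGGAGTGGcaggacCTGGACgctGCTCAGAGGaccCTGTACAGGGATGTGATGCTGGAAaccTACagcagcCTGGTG
Zfp655: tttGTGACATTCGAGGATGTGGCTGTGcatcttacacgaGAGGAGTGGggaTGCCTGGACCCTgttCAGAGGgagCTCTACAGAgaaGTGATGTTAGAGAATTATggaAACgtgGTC
Zfp948: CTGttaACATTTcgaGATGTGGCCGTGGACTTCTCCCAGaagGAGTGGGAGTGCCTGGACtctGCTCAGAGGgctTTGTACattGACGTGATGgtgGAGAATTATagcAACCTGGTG
The consensus was matched at 28 positions in Zfp568, 30 in Zfp386, 29 in Zfp809, 28 in Zfp655 and 31 in Zfp948. Members that moved in opposite directions thus had similar numbers of matches.

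Behind the KRAB domain come the fingers. The first finger followed by the common linker is shown for 3 of these members, with the codons of the 2 cysteines and 2 histidines in capitals. It lies at chr7:30022892-30022975 in Zfp568, at chr12:116059804-116059887 in Zfp386 and at chr17:21587193-21587276 in Zfp948, all on the plus strand of GRCm38.
Zfp568: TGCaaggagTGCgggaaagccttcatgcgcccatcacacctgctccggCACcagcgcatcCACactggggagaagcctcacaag
Zfp386: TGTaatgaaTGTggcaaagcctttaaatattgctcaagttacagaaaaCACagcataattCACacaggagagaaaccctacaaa
Zfp948: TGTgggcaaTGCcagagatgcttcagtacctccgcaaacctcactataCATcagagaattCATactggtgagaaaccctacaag
By pattern Zfp568 had 11 fingers, Zfp386 had 9 and Zfp948 had 15.

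Total counts per library were 49078859 to 67251946 (T0), 52632553 to 72638711 (T3) and 61837170 to 102347035 (T5). Summed levels of 8 muscle stem cell markers were 4413 to 6166 CPM in T0. In T3 they were 1795 to 2238 CPM, and T5 had 1471 and 1534 CPM. Those of 6 myofibre markers were 18.0 to 22.7, 46.8 to 76.9 and 34.02 to 34.7 CPM, and those of 5 fibro-adipogenic markers 503 to 792, 303 to 426 and 443 to 456 CPM. Sums follow their most abundant genes, and the markers of a list did not all move alike. In T3 against T0 (edgeR, adjusted p under 0.05) 2 of the 8 stem cell markers were higher and 4 lower. These 8 were Pax7, Myf5, Calcr, Cd34, Itga7, Cdh15, Vcam1 and Sdc4. Of the 6 myofibre markers 6 were higher, and of the 5 fibro-adipogenic markers 0 were higher and 2 lower. Of all genes tested 15.0% were higher and 22.9% lower. No marker on these lists stood at 0 in every library. The part of other cells in the changes below was not tested, and in bulk RNA fewer cells of a type and less RNA per cell cannot be told apart. T0 replicate 3 stood apart from the other T0 libraries. The median over the members of its log2 level relative to the T3 mean was 0.24, against 0.86 and 0.72 in T0 replicates 1 and 2. In T3 replicates this median ran from -0.07 to 0.09, and in T5 it was -0.20 and -0.23. Reads of both strands seem to have been counted together, judged from 1 gene pair: Tsix, on the strand opposite to Xist, had 1.00 to 1.01 times its count. Values of the 91 members that overlap another gene are therefore uncertain, while 103 overlap none. Among the members named below they include Zfp74, Zfp90, Zfp91, Zfp106, Zfp141, Zfp143, Zfp292, Zfp318, Zfp326, Zfp346, Zfp369, Zfp407, Zfp521, Zfp608, Zfp638, Zfp703, Zfp704 and Zfp943.

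After isolation more members were lower than higher. In T3 against T0, 106 of 194 members fell and 21 rose (edgeR, adjusted p under 0.05 over all 31999 genes tested, termed called below). Of all genes tested 22.9% were called lower and 15.0% higher. Of the 13011 genes that also averaged at least 5 CPM, termed genes at the same level below, 31.7% were lower and 23.8% higher. These share the lower limit only, with a median of 21.8 CPM against 15.2 CPM for the members. Members called lower made up 54.6% of the list and members called higher 10.8%. The median log2 fold change of the members was -0.63, against 0.05 for all genes tested and -0.04 for genes at the same level. In 75 members the level was lower by a log2 fold change of 1 or more, and in 12 it was higher by as much. The same counts were not made over all genes. Members that met the level through T0 alone are among the 75, and the choice by level favours a fall in these. Upper quartile scaling moved the median of all genes to 0.32 and that of the members to -0.29, so the members stood 0.61 below all genes in place of 0.67, and it called 87 lower and 41 higher. The share of the members' calls that were lower went from 83.5% to 68.0% with this scaling, and that of all genes' calls from 60.4% to 44.7%. Without T0 replicate 3, 134 members were called lower and 22 higher. Calls over all genes tested rose too, from 7332 lower and 4807 higher with every replicate to 8875 and 7080.

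**Figure D1:**
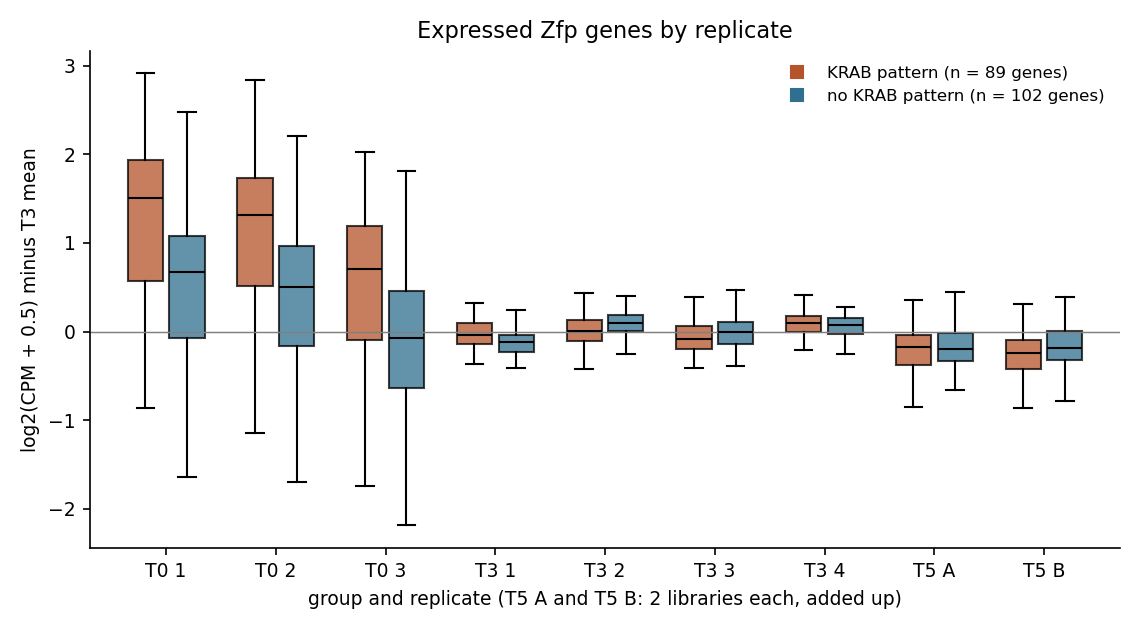
Box plots of log2(CPM + 0.5) minus the mean of the T3 replicates, for the 89 members with a KRAB pattern and the 102 without, in each replicate (line, median; box, quartiles; whiskers, up to 1.5 times the box). KRAB members stand highest in T0, with medians of 1.504, 1.31 and 0.71, and T0 replicate 3 is the lowest of the T0 replicates in both classes.

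The level that defined the members leaned on T0. The T0 mean was at least 5 CPM in 189 members, the T3 mean in 162 and the T5 mean in 153. 30 members reached it in T0 alone, 1 in T5 alone and 0 in T3 alone. Among the 147 members at or above 5 CPM in every group mean, 68 were called lower and 17 higher in T3 against T0, with a median of -0.47. Genes of the family under the level moved the same way. Of 168 tested, 114 were called lower and 1 higher, with a median of -1.40. Over the 362 Zfp genes tested in all, 220 were lower and 22 higher.

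**Figure D2:**
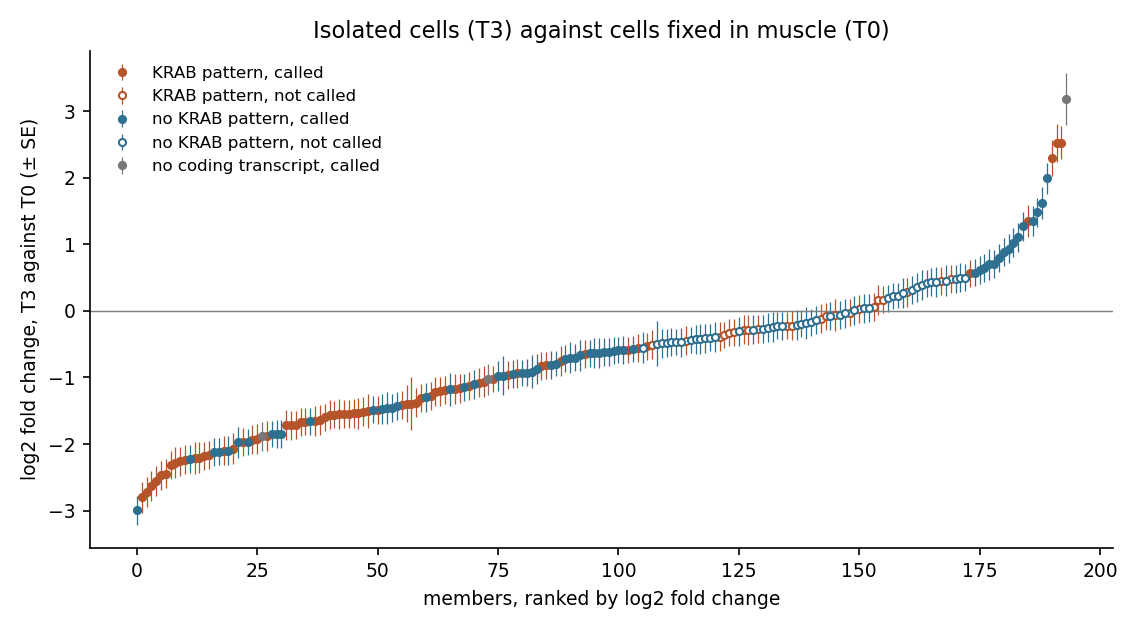
Log2 fold change of T3 against T0 (± SE) for the 194 members in rank order, coloured by KRAB pattern, with filled points for called members. The ranks run from -2.998 (Zfp395) to 3.18 (Zfp469), and 7 of the 8 lowest have a KRAB pattern.

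KRAB members made up 62 of the 106 members that fell. Of the 89 members with a KRAB pattern 69.7% were called lower in T3 against T0 and 5 members were higher, with a median log2 fold change of -1.21. Of the 102 without it 42 were lower and 15 higher, with a median of -0.42. Both classes exceeded the 31.7% of genes at this level that were called lower. Relative to the T3 mean, the median over KRAB members was 1.504, 1.31 and 0.71 in the T0 replicates and over the others 0.67, 0.50 and -0.08, so T0 replicate 3 fell within the range of T3 for members without KRAB and above it for KRAB members. The classes differ in other properties too. Median transcript GC content was 42.9% in KRAB members and 50.4% in the others, and their median level was 10.9 and 24.6 CPM. With offsets for GC content and length, 60 KRAB members were lower and 6 higher. Of KRAB members that overlap no gene, 37 of 58 were lower and 4 higher, and of the others without overlap 11 of 44 were lower and 7 higher. Among members at 5 CPM or more in every group mean, 30 of 52 with KRAB were lower and 3 higher, with a median of -0.73, against 37 lower and 14 higher of 94 without, with a median of -0.41. Upper quartile scaling left 56 KRAB members lower and 10 higher, but 29 lower and 30 higher among those without KRAB.

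The share that fell did not change evenly with the number of fingers. With 10 to 14 fingers 50 of 69 members were called lower in T3 against T0 (median log2 fold change -1.16), and with over 14 fingers 23 of 39 (median -0.63). Of 68 KRAB members with 10 or more fingers 52 were lower and 2 higher, and of 20 with 4 to 9 fingers 10 were lower and 3 higher. Of members without KRAB and with 10 or more fingers 21 of 40 were lower and 2 higher, with 4 to 9 fingers 14 of 36 were lower and 6 higher, and with 0 to 3 fingers 7 of 26 were lower and 7 higher. None of these class differences was tested.

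**Figure D3:**
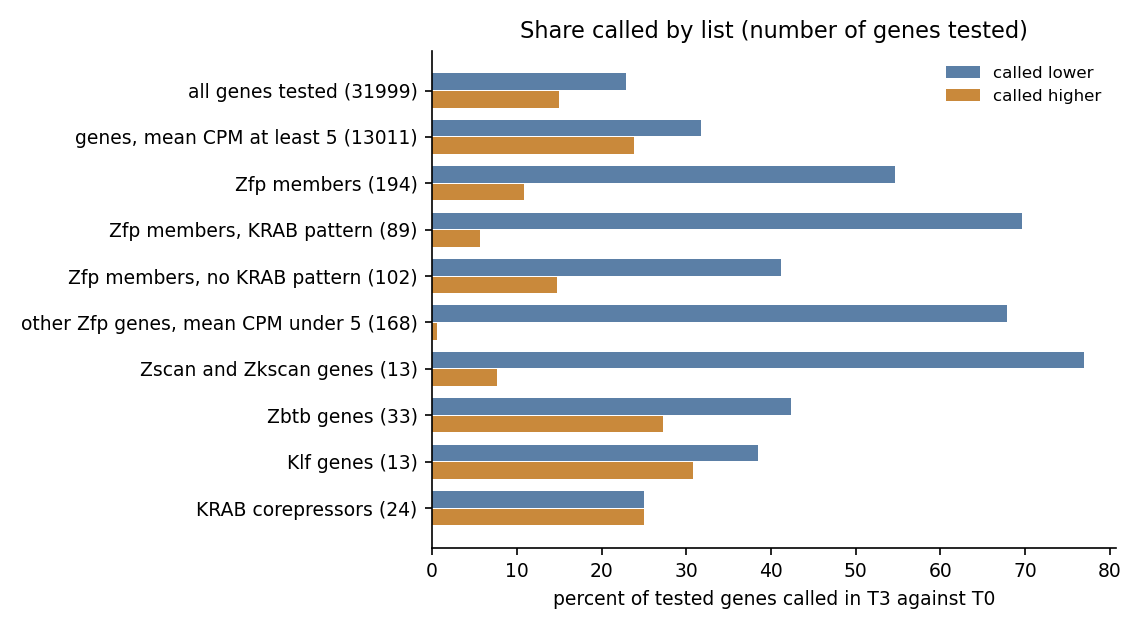
Percent of tested genes called lower and called higher in T3 against T0, for all genes, genes at a mean CPM of at least 5, the Zfp members and their KRAB classes, the Zfp genes below the level, and other zinc finger and corepressor lists. The bar for KRAB members called lower reaches 69.7%, that for members without KRAB 41.2%, and that for all genes 22.9%.

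Zfp395, which is known to bind the promoter of the Huntington's disease gene, had the lowest log2 fold change of any member. Its level was 78.3, 69.2 and 41.6 CPM in the T0 replicates, 7.09, 7.54, 8.65 and 8.28 CPM in T3, and 8.71 and 8.06 CPM in T5. The 3 T0 replicates lay far above every other replicate, and T3 and T5 overlapped. T3 was 7.99-fold lower than T0 (log2 fold change -2.998 ± 0.22, adjusted p = 8.5e-10). Zfp395 lies on chromosome 14 (65358389 to 65398930, GRCm38), has 1 finger by pattern and no KRAB, and overlaps Gm48449.

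The other 7 of the 8 lowest members were KRAB genes with 8 to 23 fingers: Zfp788, Zfp386, Zfp760, Zfp974, Zfp426, Zfp113 and Zfp157. Zfp386, whose A box is given above, had 51.9, 49.2 and 27.7 CPM in T0, 6.85, 6.21, 5.41 and 7.50 CPM in T3, and 5.46 and 5.12 CPM in T5. The fall in T3 was 6.61-fold (log2 fold change -2.73 ± 0.23, adjusted p = 4.3e-09), and no T0 replicate overlapped another group. Zfp788 had 24.7, 24.1 and 13.6 CPM in T0, 3.20, 3.21, 2.47 and 3.06 CPM in T3, and 3.52 and 3.03 CPM in T5. Its T3 level was 6.98-fold below T0 (log2 fold change -2.80 ± 0.23). Zfp788 thus belongs to the members that met the level through T0 alone. Zfp760 (-2.63 ± 0.23), Zfp974 (-2.55 ± 0.23), Zfp113 (-2.45 ± 0.22) and Zfp157 (-2.32 ± 0.21) likewise had T3 and T5 means under 5 CPM. Zfp426, at 30.5 to 49.7 CPM in T0 and 6.40 to 9.16 CPM in T3, changed by a log2 fold change of -2.47 ± 0.21. Zfp426 and Zfp974 overlap other genes.

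The largest rise belonged to Zfp469, annotated in this release as a lincRNA inside the span of Gm20388, so its reads cannot be told apart from those of that gene. It had 2.99, 4.45 and 0.656 CPM in T0, 20.02, 25.7, 24.7 and 26.7 CPM in T3, and 44.3 and 47.7 CPM in T5. T3 was 9.09-fold above T0 (log2 fold change 3.18 ± 0.39, adjusted p = 5.6e-07), and the 3 groups did not overlap.

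Zfp655, a KRAB member also known as Vik for its binding to the signalling protein VAV1, went against its class. Its level was 43.5, 41.1 and 24.2 CPM in T0, 201, 220, 157 and 258 CPM in T3, and 179 and 168 CPM in T5. Every T3 and T5 replicate lay above every T0 replicate. The rise in T3 was 5.76-fold (log2 fold change 2.53 ± 0.25, adjusted p = 3.9e-08), and Zfp655 overlaps no other gene.

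Zfp52 and Zfp948, neighbours on chromosome 17 with 4407 bases between them, rose together. Zfp948 had 25.6, 23.7 and 13.7 CPM in T0, 83.6, 133, 65.4 and 130 CPM in T3, and 47.4 and 48.1 CPM in T5. The T3 level was 4.91-fold above T0 (log2 fold change 2.30 ± 0.27, adjusted p = 4.6e-07). Zfp52 was far lower in count, with 1.73, 2.73 and 2.03 CPM in T0, 9.81, 17.2, 7.35 and 15.3 CPM in T3, and 6.57 and 6.98 CPM in T5. Its T3 level was 5.73-fold above T0 (log2 fold change 2.52 ± 0.28, adjusted p = 2.1e-07). In both genes T3 replicates 2 and 4 were the highest, and T5 lay between T0 and T3 without overlap. Both are KRAB genes, with 14 fingers in Zfp52 and 15 in Zfp948, and Zfp52 overlaps 9330136K24Rik.

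Promoters of these 3 rising KRAB genes are shown, from 250 bases before to 50 after the start of the RefSeq gene (GRCm38.p6, plus strand), because the pair on chromosome 17 moved together. They span chr17:21535289-21535588 for Zfp52, chr17:21566728-21567027 for Zfp948 and chr5:145231492-145231791 for Zfp655. Capitals mark matches to a GC box (GGGCGG, or CCGCCC on the other strand), a CCAAT box (CCAAT or ATTGG), a cyclic AMP response element (TGACGTCA), an AP-1 site (TGACTCA or TGAGTCA), an E-box (CACGTG) or the ACTACAA core (ACTACAA or TTGTAGT), which do not overlap in these windows.
Zfp52: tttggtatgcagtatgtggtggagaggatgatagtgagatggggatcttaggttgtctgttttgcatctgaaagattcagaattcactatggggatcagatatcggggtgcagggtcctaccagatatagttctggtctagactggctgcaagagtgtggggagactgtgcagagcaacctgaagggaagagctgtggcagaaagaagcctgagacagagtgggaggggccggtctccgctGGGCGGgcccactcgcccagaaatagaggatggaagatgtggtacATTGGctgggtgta
Zfp948: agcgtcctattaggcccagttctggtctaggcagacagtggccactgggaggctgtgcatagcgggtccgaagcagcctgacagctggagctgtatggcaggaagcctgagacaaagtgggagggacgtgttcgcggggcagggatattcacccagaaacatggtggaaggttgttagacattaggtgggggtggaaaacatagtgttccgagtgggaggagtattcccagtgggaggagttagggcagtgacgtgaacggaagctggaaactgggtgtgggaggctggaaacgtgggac
Zfp655: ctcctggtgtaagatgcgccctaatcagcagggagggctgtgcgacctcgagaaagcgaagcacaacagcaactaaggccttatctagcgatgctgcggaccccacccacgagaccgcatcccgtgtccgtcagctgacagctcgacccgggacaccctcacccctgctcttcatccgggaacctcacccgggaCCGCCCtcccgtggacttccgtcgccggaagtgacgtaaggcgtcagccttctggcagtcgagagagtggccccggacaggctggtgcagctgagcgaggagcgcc
Over 181 aligned bases the windows of Zfp52 and Zfp948 were identical at 133, or 73.5%, whereas the best local alignment of Zfp655 with either covered 18 and 27 bases. Zfp52 held 1 GC box and 1 CCAAT box, Zfp655 held 1 GC box, and the window of Zfp948 held none of the 6 motifs. A RefSeq promoter was matched for 155 of the 194 members. A GC box was present in 55.5% of these and in 35.9% of all 27025 promoters, and the median number of CpG was 17 against 7. The set of all promoters had no limit on level, unlike the members. Promoters of other genes at the members' level were not counted, so the part of level in these differences is not known. Among the 17 members with a promoter that rose in T3 a GC box was present in 82.4%, among the 85 that fell in 52.9%, and among those not called in 50.9%. With KRAB it was present in 45.6% and without KRAB in 64.9%, and none of these differences was tested. A cyclic AMP response element was present in 2.58% of members and 1.88% of all promoters, an AP-1 site in 3.87% and 5.17%, and the ACTACAA core in 6.45% and 3.45%.

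Of the other members with high fold changes in T3 against T0, Zfp593, Zfp703, Zfp131 and Zfp142 had no KRAB pattern. Zfp593, whose yeast relative takes part in export of the large ribosomal subunit, had 3.81, 3.79 and 2.24 CPM in T0, 11.7, 15.2, 12.03 and 13.2 CPM in T3, and 8.54 and 9.38 CPM in T5. This was a 3.98-fold rise in T3 (log2 fold change 1.99 ± 0.23, adjusted p = 3.4e-07), with no overlap of T0 with either group. Zfp131, which also has a BTB domain, was at 58.0, 50.4 and 34.3 CPM in T0, 122, 140, 119 and 152 CPM in T3, and 116 and 109 CPM in T5. It rose 2.80-fold in T3 (log2 fold change 1.49 ± 0.22, adjusted p = 7.4e-06), and its replicates fell into 3 separate ranges. Zfp142, with 37 fingers by pattern, rose 2.55-fold (log2 fold change 1.35 ± 0.22, adjusted p = 3.2e-05). The KRAB member Zfp954 rose 2.55-fold as well, from 1.94 to 4.00 CPM in T0 to 6.57 to 8.23 CPM in T3. Zfp593, Zfp131 and Zfp142 overlap other genes.

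**Figure D4:**
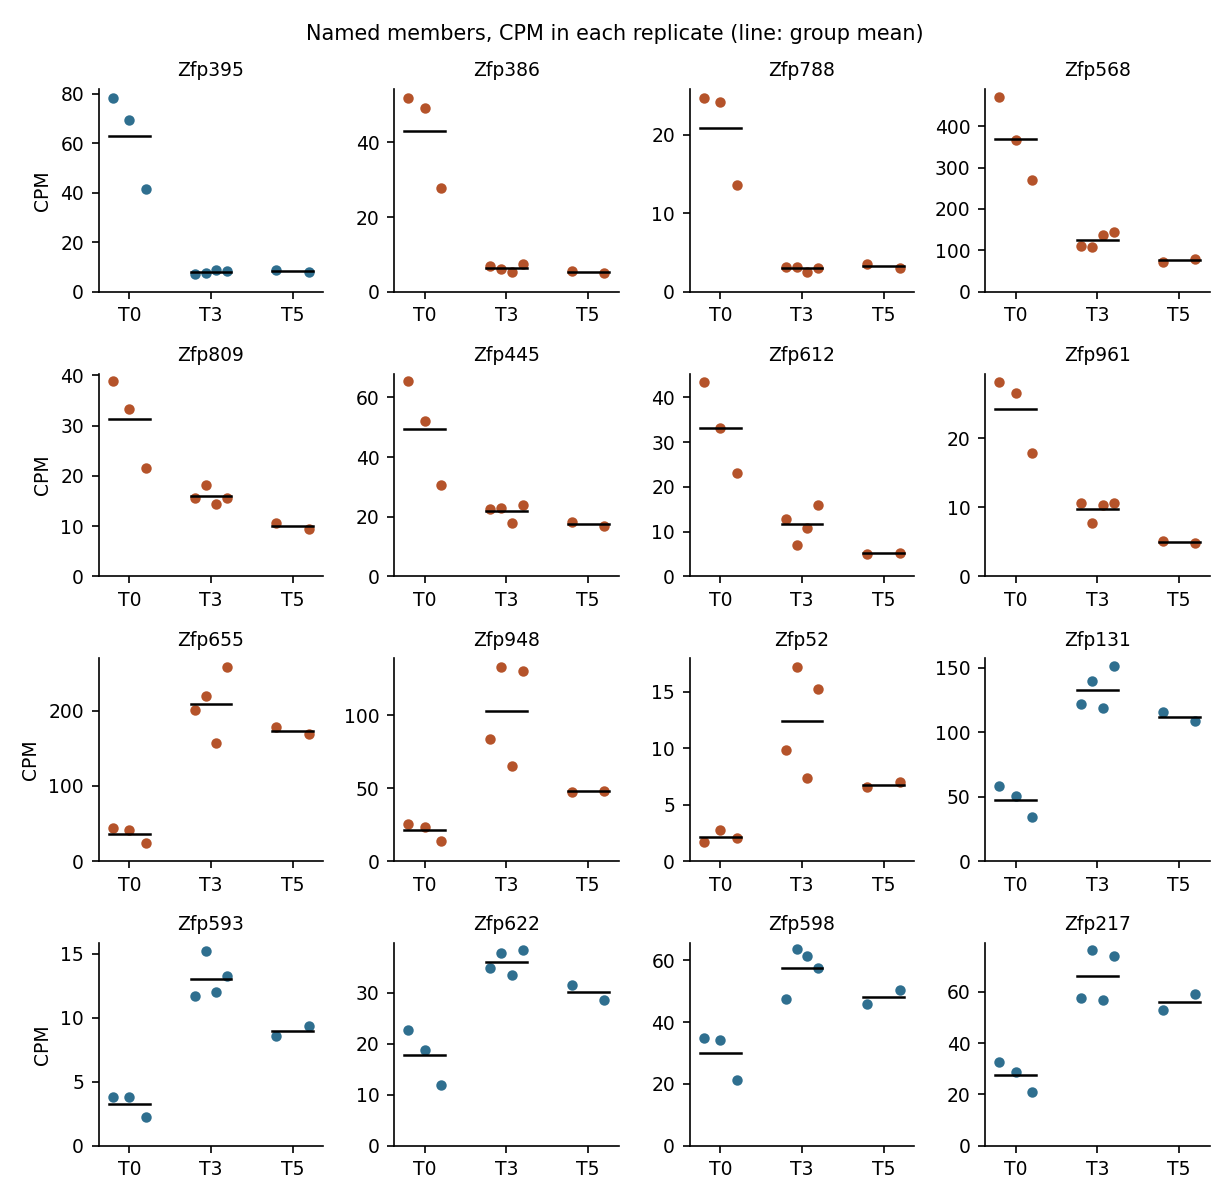
CPM of 16 named members in each T0, T3 and T5 replicate (points) with the group mean (line), on axes that start at 0 and differ between genes; orange, KRAB pattern; blue, none. Zfp395 falls from 41.6 to 78.3 CPM in T0 to under 9 CPM in T3, and Zfp655 rises from 24.2 to 43.5 CPM to 157 to 258 CPM.

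Members stand close together on the chromosomes. With gaps of up to 250 kb, 12 runs of 3 or more members held 53 of the 194. Of the 35 KRAB members in runs 23 were called lower in T3 against T0, and of the 54 outside runs 39 were. The run on chromosome 17 (21535539 to 22071168, GRCm38) held 6 KRAB members that moved both ways. Zfp52 and Zfp948 rose, whereas Zfp760 (-2.63 ± 0.23), Zfp229 (-1.93 ± 0.21), Zfp942 (-1.28 ± 0.21) and Zfp943 (-1.02 ± 0.20) fell on the log2 scale. The longest run, on chromosome 7 (29768552 to 30169750), held 11 members, of which 8 fell and 0 rose, among them Zfp74 (-2.18 ± 0.21) and Zfp568 (-1.56 ± 0.22). Zfp382, in the same run, had a log2 fold change of 0.48 ± 0.21 that did not pass the test (adjusted p = 0.083). On chromosome 9 (20345136 to 20605409) 4 of 5 members fell, Zfp846 by 2.23 on the log2 scale. The similarity of neighbouring copies can split or share reads, which was not tested here.

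The 3 members of the list for imprinting and retroelement silencing all fell in T3 against T0, where 31.7% of genes at the same level were called lower. Zfp568 and Zfp809 are KRAB members, a class of which 69.7% were called lower. The 7 other genes on that list, among them the imprinting factor Zfp57, were not among the members. Zfp568, which represses a placental transcript of Igf2, had 470, 368 and 269 CPM in T0, 111, 109, 137 and 144 CPM in T3, and 72.4 and 80.4 CPM in T5. It was 2.95-fold lower in T3 (log2 fold change -1.56 ± 0.22, adjusted p = 3.6e-06), and its 3 groups did not overlap. Zfp445, which helps to maintain imprints, had 65.5, 52.2 and 30.6 CPM in T0, 22.7, 23.0, 17.9 and 23.8 CPM in T3, and 18.1 and 16.9 CPM in T5. The fall was 2.26-fold (log2 fold change -1.18 ± 0.23, adjusted p = 0.00017), and T3 overlapped T5 but not T0. Zfp809, which recognises the primer binding site of certain retroviruses, had 38.9, 33.3 and 21.5 CPM in T0, 15.6, 18.2, 14.4 and 15.5 CPM in T3, and 10.6 and 9.52 CPM in T5. It was 1.96-fold lower in T3 (log2 fold change -0.97 ± 0.21, adjusted p = 0.00065), and its groups again lay apart. Zfp445 and Zfp809 overlap other genes and Zfp568 does not.

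RNA-associated members did not share 1 direction. Of 9, 2 rose in T3 against T0, 1 fell and 6 were not called, with a median log2 fold change of 0.39. Of genes at the same level 23.8% were called higher and 31.7% lower, and a difference from these shares was not tested. Zfp622, a factor in maturation of the large ribosomal subunit, had 22.8, 18.7 and 11.9 CPM in T0, 34.8, 37.8, 33.5 and 38.5 CPM in T3, and 31.5 and 28.6 CPM in T5, a 2.03-fold rise in T3 (log2 fold change 1.02 ± 0.22, adjusted p = 0.00055). Zfp598, a ubiquitin ligase that senses collided ribosomes, had 34.8, 34.1 and 21.3 CPM in T0, 47.6, 63.5, 61.4 and 57.5 CPM in T3, and 45.8 and 50.3 CPM in T5, a 1.91-fold rise in T3 (log2 fold change 0.94 ± 0.21, adjusted p = 0.0011). In both genes every T3 and T5 replicate exceeded every T0 replicate, and neither overlaps another gene. Their calls in T5 against T0 were lost with DESeq2 (adjusted p = 0.087 for Zfp622 and 0.12 for Zfp598) and with relative log expression factors (0.087 and 0.13). Leaving out either T5 replicate also ended both (up to 0.17 and 0.24). That of Zfp598 was further lost with a replicate block (0.057) or without T3 replicate 4 (0.052). Zfp318, which controls splicing of immunoglobulin transcripts in B cells, fell from 63.8 to 91.5 CPM in T0 to 21.7 to 29.0 CPM in T3 (log2 fold change -1.66 ± 0.20, adjusted p = 5.7e-07). The values of those not called were 0.45 ± 0.23 for Zfp830, 0.44 ± 0.21 for Zfp326, a link between transcription and splicing, and 0.39 ± 0.22 for Zfp207, a partner of the checkpoint protein BUB3. Those of Zfp106, an RNA-binding protein needed by motor neurons and muscle, Zfp346, which binds double-stranded RNA, and Zfp638 were -0.20 ± 0.20, -0.40 ± 0.20 and -0.49 ± 0.21. Upper quartile scaling called Zfp207, Zfp326 and Zfp830 higher, and offsets for GC content and length did so for Zfp207 (adjusted p = 0.042) and Zfp326 (0.020). Zfp638 was called lower with a replicate block or with T5 libraries entered singly (both 0.036) and without T0 replicate 3 (0.0016), as was Zfp346 without T0 replicate 3 (0.0033).

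Among 12 lineage and growth regulators 3 rose in T3 against T0 and 5 fell, where 23.8% of genes at the same level were called higher and 31.7% lower. A difference of this list from those shares was not tested. Zfp703, a transcriptional cofactor amplified in breast cancers, had 16.8, 10.6 and 7.43 CPM in T0, 34.05, 39.5, 35.5 and 33.6 CPM in T3, and 27.6 and 29.1 CPM in T5, a 3.07-fold rise in T3 (log2 fold change 1.62 ± 0.24, adjusted p = 7.9e-06). Zfp217, a component of complexes with the demethylase LSD1, had 32.5, 28.7 and 21.1 CPM in T0, 57.5, 76.3, 56.8 and 74.1 CPM in T3, and 52.7 and 59.1 CPM in T5, a 2.41-fold rise (log2 fold change 1.27 ± 0.21, adjusted p = 3.8e-05). The pluripotency regulator Zfp281 rose 2.15-fold, from 11.8 to 16.9 CPM in T0 to 24.3 to 37.6 CPM in T3 (log2 fold change 1.10 ± 0.22). T0 lay below T3 in all 3 genes.

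The largest fall on this list was that of Zfp292, with 173, 155 and 111 CPM in T0, 33.01, 47.0, 46.6 and 36.2 CPM in T3, and 32.4 and 32.4 CPM in T5. It was 3.59-fold lower in T3 (log2 fold change -1.84 ± 0.21, adjusted p = 2.6e-07) without overlap. The paralogs Zfp521 and Zfp423, which act on EBF factors in adipocyte and B cell development, changed by -0.93 ± 0.20 and -0.91 ± 0.25. Zfp521 ran from 125 to 205 CPM in T0 and from 85.6 to 94.7 CPM in T3. Zfp423 overlapped between groups, at 53.1, 86.7 and 35.6 CPM in T0 and 25.3 to 42.8 CPM in T3, and leaving out T0 replicate 2 ended its call (adjusted p = 0.14). Zfp608 (-0.66 ± 0.23) and Zfp704 (-0.57 ± 0.20) passed the test but lost their calls when any of 3 and 6 single replicates was left out (adjusted p up to 0.12 and 0.11). Those were T0 replicates 1 and 2 and T3 replicate 3 for Zfp608, and T0 replicates 1 and 2, T3 replicates 2 and 3 and either T5 replicate for Zfp704. Values not called were -0.31 ± 0.21 for Zfp148, 0.22 ± 0.20 for Zfp462, 0.48 ± 0.20 for Zfp609 and 0.50 ± 0.20 for Zfp697, which overlaps 13 other genes. Upper quartile scaling called Zfp462, Zfp609 and Zfp697 higher and ended the calls of Zfp423, Zfp608 and Zfp704. Offsets for GC content and length called Zfp609 (adjusted p = 0.0042) and Zfp697 (0.0065) higher, as leaving out T0 replicate 1 did for Zfp609 (0.037), and without T0 replicate 3 Zfp148 was called lower (0.0066).

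Zfp143, an activator of many promoters that binds the ACTACAA core, was 1.51-fold lower in T3 than in T0, at 28.2 to 38.1 CPM in T0 and 18.8 to 24.2 CPM in T3 (adjusted p = 0.017). That call was lost without T0 replicate 1 or 2, T3 replicate 1 or T5 replicate A (adjusted p = 0.056 to 0.064). Zfp369 and Zfp110, known as partners of the neurotrophin receptor p75, both fell. Zfp369 was 2.93-fold lower, from 20.1 to 38.6 CPM in T0 to 9.47 to 11.6 CPM in T3 (adjusted p = 3.7e-06). Zfp110 was 1.47-fold lower with overlapping groups (adjusted p = 0.040). Leaving out any of 7 single replicates, all but T0 replicate 3 and T3 replicate 4, ended that call, at adjusted p of 0.072 to 0.20. Zfp91, a ubiquitin ligase of the noncanonical NF-kB pathway, had 63.4 to 110 CPM in T0 and 80.5 to 103 CPM in T3 (log2 fold change 0.04 ± 0.21). Upper quartile scaling ended the calls of Zfp143 and Zfp110 and called Zfp91 higher (adjusted p = 0.032).

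Few members passed the test for the added 2 h. In T5 against T3, 2 of 194 members were called lower and 0 higher with edgeR, where 0.888% of all genes tested were lower and 1.28% higher, and 1.45% and 1.75% of genes at the same level. At an unadjusted p under 0.05, 24 were lower and 5 higher, where 6.99% of all genes tested were lower and 5.85% higher, and 12.02% and 5.94% of genes at the same level. DESeq2 called 7 lower and 0 higher, where it called 2.53% of all its genes lower and 1.22% higher, and 3.70% and 1.52% of genes at that level. Both counts of lower members lie near the background at that level. The median log2 fold change of the members was -0.23, against 0.05 for all genes tested and -0.13 for genes at the same level. Zfp612, a KRAB gene with 16 fingers, had 43.4, 33.2 and 23.2 CPM in T0, 12.9, 7.04, 10.9 and 16.03 CPM in T3, and 4.96 and 5.34 CPM in T5. It was 2.28-fold lower in T5 than in T3 (log2 fold change -1.19 ± 0.30, adjusted p = 0.036). Zfp961, a KRAB gene with 11 fingers, had 28.2, 26.6 and 17.8 CPM in T0, 10.6, 7.67, 10.3 and 10.6 CPM in T3, and 5.15 and 4.82 CPM in T5, and was 1.96-fold lower in T5 (log2 fold change -0.97 ± 0.25, adjusted p = 0.040). In both, each group lay below the one before it without overlap, and both overlap other genes. Neither call held without T5 replicate A or B, or without T3 replicate 1, 3 or 4, and that of Zfp961 was also lost without T0 replicate 2 (adjusted p = 0.052 to 0.41 and 0.058 to 0.64). Relative log expression factors (adjusted p = 0.053 for Zfp612 and 0.054 for Zfp961) and a replicate block (0.050 and 0.051, both above the threshold) ended both calls, and upper quartile factors ended that of Zfp612 (0.059). The count of members called lower was 23 without T0 replicate 3, with 4 called higher, and 7 without T0 replicate 1, with 1 higher. It was 1 without T0 replicate 2 or T3 replicate 3, and 0 without T3 replicate 1 or 4 or either T5 replicate. Calls over all genes tested moved as well. They were 284 lower and 411 higher with every replicate, 1581 and 922 without T0 replicate 3, and 643 and 796 without T0 replicate 1.

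Several rising members had lower levels again in T5 without passing the test. Zfp948 had a log2 fold change of -1.11 ± 0.30 in T5 against T3 (adjusted p = 0.055), Zfp52 one of -0.87 ± 0.30 (adjusted p = 0.16) and Zfp142 one of -0.65 ± 0.25 (adjusted p = 0.24). In each of the 3 genes both T5 replicates lay between the T0 and the T3 replicates. For Zfp948 DESeq2 gave an adjusted p of 0.014. Zfp704 ran the other way, at 98.6 to 116 CPM in T3 and 193 and 175 CPM in T5, which was within its T0 range of 132 to 195 CPM (log2 fold change 0.74 ± 0.22, adjusted p = 0.094). T3 against T0 and T5 against T3 share the T3 libraries. With edgeR and TMM scaling no member was called in opposite directions in both, but other settings made such calls. Zfp948 was also called lower in T5 against T3 without a filter (adjusted p = 0.0046), with T5 libraries entered singly (0.0031), with a replicate block (0.0067), and without T0 replicate 1 (0.018), T0 replicate 3 (0.018) or T3 replicate 3 (0.021). Zfp704 was called higher in T5 against T3 with upper quartile factors (0.0094), T5 libraries entered singly (0.014), offsets for GC content and length (0.025), and without T0 replicate 1 (0.040) or 3 (0.0058). Without T0 replicate 3, 5 members were called in opposite directions. Such calls were not counted over all genes, whose calls in T5 against T3 also rose without this replicate, as given above.

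Over both steps, T5 against T0, 115 members were called lower and 15 higher, where 22.5% of all genes tested were lower and 13.2% higher, and 32.8% and 18.6% of genes at the same level. The median log2 fold change was -0.86, against 0.18 for all genes tested and -0.12 for genes at the same level. Upper quartile scaling, which moved the median of all genes to 0.51, called 94 members lower and 32 higher. Of KRAB members 66 of 89 were lower and 4 higher, with a median of -1.53, and of the others 47 of 102 were lower and 10 higher, with a median of -0.63. The comparison shares the T0 libraries with T3 against T0, and 99 members were called lower in both. Genes called lower in both were not counted over all genes, so the 99 cannot be set against a background. Without T5 replicate A or B, 9 members were higher, and 28 or 29 of those without KRAB were lower and 4 higher.

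Zfp386 had the lowest fold change in T5, 8.11-fold below T0 (log2 fold change -3.02 ± 0.30). Zfp395 (-2.91 ± 0.29) and Zfp612 (-2.69 ± 0.33) came next on the log2 scale. Zfp74, at 22.7 to 33.3 CPM in T0 and 4.63 and 4.79 CPM in T5, was 6.14-fold lower (adjusted p = 2.1e-07). Zfp606 (-2.55 ± 0.28) and Zfp90 (-2.52 ± 0.29) were also among the 8 lowest log2 fold changes of T5 against T0. Of the members that rose, Zfp469 stood 17.2-fold and Zfp655 4.79-fold above T0. Zfp346 was not called in T3 but was 1.98-fold lower in T5, from 40.8 to 68.3 CPM in T0 to 26.7 and 28.7 CPM in T5 (adjusted p = 0.0031), a call that leaving out T5 replicate A ended (adjusted p = 0.083). In T5 against T3 its log2 fold change was -0.59 ± 0.24 (adjusted p = 0.27), so a difference between the T3 and T5 levels did not pass the test.

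Genes of a list drawn up for KRAB corepressors were called in both directions. Beside genes given below it held Cbx1, Cbx3, Hdac1, Hdac2, Chd3, Chd4, Mphosph8, Fam208a, Pphln1, Morc2a, Morc3, Smarcad1, Dnmt1, Trim24, Trim33, Rbbp4 and Rbbp7. Of 24 tested, 6 rose and 6 fell in T3 against T0, with a median log2 fold change of 0.13. The list had no limit on level. Of all genes tested 15.0% were higher and 22.9% lower, and of genes at the members' level 23.8% and 31.7%. Uhrf1, at a mean of 1.24 CPM in T0, 2.28 in T3 and 3.65 in T5, was among those that rose in T3 and in T5 against T0. On this list 0 were called in T5 against T3, and 3 rose and 7 fell in T5 against T0. Trim28, which the KRAB A box binds, was at 51.8 ± 18.5 CPM (SD, n = 3) in T0, 57.0 ± 7.1 (SD, n = 4) in T3 and 43.7 ± 1.8 (SD, n = 2) in T5, and T3 was not called against T0 (log2 fold change 0.14 ± 0.23, adjusted p = 0.69). The methyltransferase gene Setdb1 had a log2 fold change of -0.30 ± 0.21 in T3 (adjusted p = 0.30) and was lower in T5 against T0 (-0.89 ± 0.26, adjusted p = 0.0091). Its cofactor Atf7ip (-0.95 ± 0.20) and the heterochromatin protein gene Cbx5 (-1.54 ± 0.20) fell in T3 on the log2 scale. Kdm1a (1.54 ± 0.22) and Rcor1 (1.22 ± 0.21), which encode the demethylase LSD1 and its partner CoREST, rose. Of the genes on this list with values given here, Trim28, Setdb1, Atf7ip, Kdm1a and Rcor1 overlap other genes.

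Other zinc finger families were counted with the same lower limit of 5 CPM. Of 13 Zscan and Zkscan genes, which carry a SCAN domain before the fingers, 10 (76.9%) were called lower in T3 against T0 and 1 higher, with a median log2 fold change of -1.32. Of 33 Zbtb genes 42.4% were lower and 27.3% higher (median -0.22), and of 13 Klf genes 38.5% were lower and 30.8% higher (median -0.30), both nearer to the 31.7% and 23.8% of genes at this level. The families differ in level, with medians of 11.4 CPM for Zscan and Zkscan, 25.1 CPM for Zbtb and 35.2 CPM for Klf genes. Some Zscan and Zkscan genes met the limit through T0 alone, and the choice by level favours a fall in these. Zkscan8 had means of 27.5, 3.29 and 2.51 CPM in T0, T3 and T5, and Zscan20 13.3, 4.47 and 4.51 CPM. Differences between families were not tested.

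By CPM, which is not corrected for length, Zfp407, Zfp106 and Zfp609 had the highest means of the members, at 282, 192 and 179 CPM. Zfp407 ran from 194 to 267 CPM in T0 and from 280 to 363 CPM in T3, without overlap, but was not called (log2 fold change 0.42 ± 0.21, adjusted p = 0.13), except with upper quartile scaling or offsets for GC content and length. At the level of 5 CPM, Zfp936 (5.01) and Zfp141 (5.19) lay just inside, and Zfp938 (4.92) and Zfp930 (4.90) just outside.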

How the data were processed

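The deposited file holds raw read counts of every gene in 11 libraries. Tools named in the submitters' processing notes are DESeq2 1.12.3, R 3.3.1, featureCounts 1.4.6-p3 (Subread) and STAR 2.5.0a, with the build GRCm38; annotation release, strand setting and filters are not given in the sources used here. Libraries were directional, with 65-bp single-end reads, per the labels' protocols. Gene IDs were matched to GENCODE vM21, which had an entry for 48349 of 48709. Column names gave the groups.

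The test was that of edgeR 4.0.16 under R 4.3.3: quasi-likelihood F test, two-sided, TMM scaling, filterByExpr, all groups in 1 fit without covariates, and Benjamini-Hochberg adjustment over 31999 genes. All 194 members passed the filter. The CPM values printed are scaled to TMM-corrected library sizes, and the mean that defined membership to column totals. Standard errors are fold changes over the root of F. The fit was tested on simulated data. KRAB and finger patterns were read from translated GENCODE transcripts, where RefSeq proteins had been planned. Capitals in promoters come from searches of both strands.

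Members and lists were chosen with earlier results of these data known. Named are, per comparison, the 8 highest and 8 lowest called members with groups that do not overlap, the members of 4 role lists, the 3 highest by mean CPM, and genes next to the level; other members of chromosome runs were named after their values were seen. Alternatives were other scalings, DESeq2 1.42.0, no filter, unpooled T5 libraries, offsets for GC content and length, a replicate block, other levels, members without overlap, and leaving out each replicate. The marker lists not given in the report had these summed CPM ranges in T0, T3 and T5: endothelial 204 to 252, 323 to 422 and 211 to 216; macrophage 19.3 to 39.1, 27.6 to 38.6 and 29.1 to 32.2; pericyte and smooth muscle 87.1 to 167, 76.1 to 151 and 83.3 to 89.5; Schwann 11.9 to 15.4, 10.9 to 23.2 and 6.57 to 6.94; erythroid 24.0 to 29.8, 6.85 to 14.2 and 12.5 to 17.1; lymphocyte 2.27 to 3.98, 1.89 to 3.11 and 2.79 to 3.19; neutrophil 1.80 to 3.59, 0.76 to 8.88 and 2.72 to 3.26.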

Additional observations from a re-analysis of the deposited data

Results flagged for a closer look

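In 5 of 55 values checked within T3, 1 of the 4 replicates lay far from the other 3. About 1 in 20 such groups would do so by chance. Zfp961 stood at 7.67 CPM in T3 replicate 2, where the other 3 lay between 10.3 and 10.6 CPM. Zfp606 stood at 3.93 CPM in replicate 3, with the others at 4.78 to 4.79 CPM. Zfp90 stood at 5.04 CPM in replicate 3, above the others at 3.53 to 3.78 CPM. Zfp954 stood at 6.57 CPM in replicate 3, below the others at 8.03 to 8.23 CPM. Zfp141 stood at 4.52 CPM in replicate 1, above the others at 3.84 to 3.95 CPM.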

How the results depend on the processing

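Members were lower than all genes tested, by medians, in each comparison and under each scaling. In T3 against T0, upper quartile scaling gave 41 members higher, a median of -0.29, 10 higher with KRAB and 30 higher without; in T5 against T0 it gave 32 higher, a median of -0.46, and 7 and 24 higher with and without KRAB. Other levels and members change the lists themselves. At a mean CPM of at least 2, 185 of 286 members were lower in T3 against T0 (median -1.05) and 193 in T5 against T0 (median -1.23). With KRAB 126 and 129 of 160 were lower. In T5 against T3 1 member was higher at this level. At a mean CPM of at least 10, 64 and 69 of 133 were lower in T3 and T5 against T0. Of 46 with KRAB at that level, 29 and 32 were lower and 3 and 2 higher. Of members that overlap no gene, 49 were lower and 11 higher in T3 against T0 and 55 and 8 in T5 against T0; with KRAB 37 and 40 were lower; without KRAB 11 were lower and 7 higher, then 14 and 5; in T5 against T3 0 were lower.

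In T5 against T3, where few members were called, the counts varied with the setting. Relative log expression factors gave 0 lower (median -0.34), upper quartile factors 2 higher, no filter 5 lower and 1 higher, T5 libraries entered singly 17 lower and 2 higher, offsets for GC content and length 1 higher, and DESeq2 7 lower (median -0.35). Over all genes tested, T5 libraries entered singly gave 1199 lower and 923 higher in T5 against T3, where summed libraries gave 284 and 411. In T5 against T0 relative log expression factors and DESeq2 each gave 9 higher, 4 of them without KRAB. The cause of these changes was not tested.

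Leaving out 1 replicate, members lower in T3 against T0 ranged from 89 to 134, members higher from 16 to 25, and the median from -0.81 to -0.49. With KRAB 58 to 73 were lower and 4 to 6 higher, and without KRAB 29 to 59 and 11 to 18. In T5 against T3 0 to 23 were lower and 0 to 4 higher, with medians from -0.26 to -0.20. In T5 against T0 85 to 146 were lower and 9 to 16 higher, with medians from -1.07 to -0.75; with KRAB 55 to 79 and 4 to 5, and without KRAB 28 to 65 and 4 to 10. With a replicate block, 103 members were lower and 18 higher in T3 against T0, 2 and 0 in T5 against T3 (median -0.33, and with offsets for GC content and length -0.31 with 1 higher), and 122 and 12 in T5 against T0. The 2 calls in T5 against T3 were not those made without the block: Zfp948 (adjusted p = 0.0067) and Zfp746 were called, and Zfp612 and Zfp961 were not. Whether the numbers pair the samples is not settled. Deviations of T0 and T3 libraries of the same number had correlations of -0.17, 0.21 and 0.22. T0 replicate 2 was closest to the T3 replicate of its own number, and T0 replicates 1 and 3 were closest to T3 replicates of another number.

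For the 52 named members 2652 comparisons under alternatives left 2473 results as they were, whether called or not called. They ended 101 calls, added 78 and reversed 0. The share of the calls alone that held was not counted. Upper quartile factors and leaving out T0 replicate 3 added the most calls, 17 and 18. On simulated data the fit found fewer 2-fold than 4-fold changes; what depth limits was not tested.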
